A study of Mus musculus with 20 samples.

Results

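The genes described here are 10 members of the vascular endothelial growth factor (VEGF) system in the mouse heart: the ligands Vegfa, Vegfb, Vegfc and Pgf, the receptor tyrosine kinases Kdr, Flt1 and Flt4, the co-receptors Nrp1 and Nrp2, and the semaphorin receptor Plxnd1. They were chosen by symbol among 55335 genes counted, and the set was selected on the isoproterenol responses of these same libraries, in which Nrp1 and Nrp2 were lower with isoproterenol mainly in the knockout. All 10 passed the filter on low counts, which left 14878 genes. The isoproterenol responses and the difference between them are therefore given for these genes as values with intervals and with no p. Mice of the C57BL/6N strain, 3 to 5 months old, carried a knockout (KO) of Ogfod1, which encodes a prolyl hydroxylase of a ribosomal protein, or were wild type (WT). Through an osmotic minipump they received for 2 weeks either isoproterenol, a beta-adrenergic agonist that enlarges the heart, in phosphate-buffered saline with sodium ascorbate, or that vehicle without the drug. The groups were KO isoproterenol, KO vehicle, WT isoproterenol and WT vehicle, with 5 whole-heart RNA libraries in each and 20 in all. All mice ate the NIH-31 diet, and the dose of isoproterenol, the sex of the mice and how the knockout was made are not stated by the labels.

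VEGF ligands are secreted growth factors of blood and lymph vessels. VEGF-A signals mainly through VEGFR2, the product of Kdr, while VEGFR1, the product of Flt1, binds VEGF-A, VEGF-B and placental growth factor and acts largely as a trap. VEGF-C acts on VEGFR3, the product of Flt4, in lymphatic vessels. Neuropilins bind both VEGFs and class 3 semaphorins and join VEGF receptors or plexins in a complex. In the heart, muscle cells are a main source of VEGF-A and VEGF-B, and the receptors are found chiefly on endothelial cells.

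Total counts ran from 14.6 to 43.7 M per library, and mitochondrially encoded genes took 55.5% to 61.9% of them. Ogfod1 measured 3.18 ± 0.681 CPM (counts scaled to library size) in KO isoproterenol, 3.19 ± 0.582 CPM in KO vehicle, 20.2 ± 1.35 CPM in WT isoproterenol and 19.2 ± 1.44 CPM in WT vehicle hearts (SD, n = 5 each), which fits the labels. Cardiomyocyte markers summed to between 50000 and 75100 CPM over all libraries, endothelial markers to between 1050 and 1250 CPM, and no marker of any list was at 0 in all 20 libraries. Whether a marker was at 0 within a single group was not checked. An earlier analysis of these libraries described KO isoproterenol replicate 5 and WT vehicle replicate 2 as standing apart. In KO isoproterenol replicate 5 the smooth muscle and pericyte markers summed to 4100 CPM, against 1180 to 1220 CPM in the other KO isoproterenol libraries. Whether each library came from a mouse of its own is not stated by the labels, so that errors and p-values measure the spread between libraries, which may be partly technical. In whole-heart RNA, fewer cells of a type and less RNA per cell cannot be told apart.

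All members were measured in every library, with between 19 reads, for Vegfc in a WT vehicle library, and 5785 reads, for Vegfa in a KO vehicle library. Levels were compared between genes as CPM per kilobase of exon. Vegfa was the highest member in each group, at 21.1 ± 1.48 CPM per kilobase in KO isoproterenol, 29.6 ± 3.4 in KO vehicle, 24.4 ± 3.04 in WT isoproterenol and 29.9 ± 3.7 in WT vehicle hearts (SD, n = 5 each). Vegfb came next, with group means of 12.1 to 18 CPM per kilobase, then Kdr with 9.14 to 11.4. Flt1, Plxnd1 and Nrp1 followed at 6.93 to 9.15 CPM per kilobase, and neighbours in rank among these 3 overlapped in each group, so that their order is not fully resolved. In WT vehicle hearts Flt1, at 8.03 to 10.2, still lay wholly above Nrp1, at 6.91 to 7.63 CPM per kilobase. Vegfb and Kdr also overlapped in KO vehicle and WT isoproterenol hearts, Kdr and Flt1 in KO isoproterenol and WT vehicle hearts, and Kdr and Plxnd1 in each group. Nrp2 lay at 2.77 to 3.76, Flt4 at 2.41 to 2.97, Pgf at 1.53 to 1.92 and Vegfc, the lowest in each group, at 0.535 to 0.773 CPM per kilobase. Nrp2 and Flt4 overlapped in both KO groups, and Flt4 and Pgf in KO isoproterenol hearts. The range of Vegfa lay above that of the next gene in all 4 groups, and the range of Vegfc below that of Pgf. Among the co-receptors, Nrp1 thus stood above Nrp2 in each group without overlap.

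**Figure D1:**
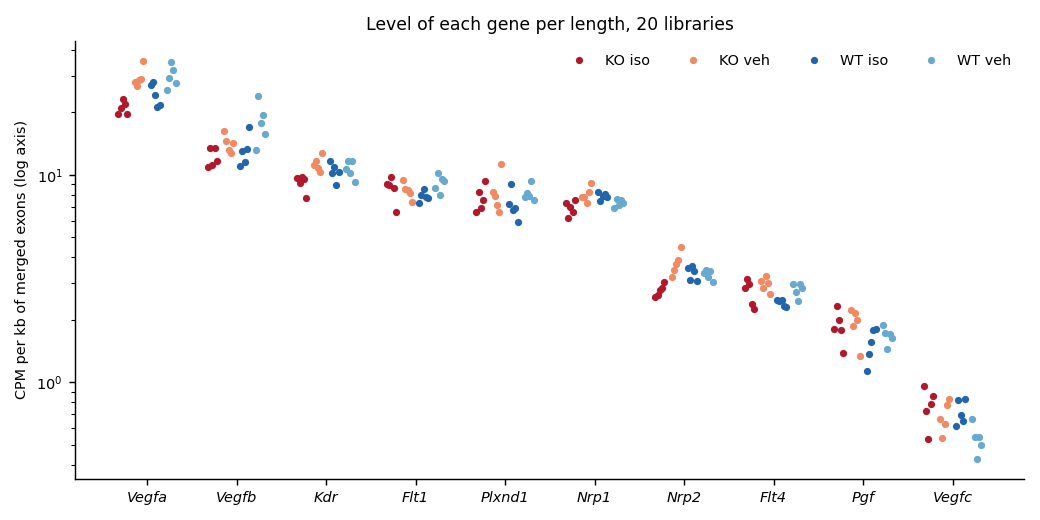
Level of each member in CPM per kilobase of merged exons (log axis), one point per library, coloured by group, with KO isoproterenol (iso), KO vehicle (veh), WT isoproterenol and WT vehicle from left to right within each gene. Vegfa lies highest, with group means of 21.1 to 29.9, and Vegfc lowest, with 0.535 to 0.773.

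The start regions of the genes were inspected because several members were lower together in KO hearts. RefSeq promoter windows on GRCm38.p6, 250 bases before to 50 bases after a transcript start, matched all 10 members in 12 windows. The windows of Nrp1 (chr8:128358823-128359122, plus strand), Nrp2 (chr1:62703067-62703366, plus strand), Kdr (chr5:75978406-75978705, minus strand) and Vegfa (chr17:46032328-46032627, minus strand) are shown as examples. They were picked with the KO isoproterenol responses in view, whose 95% intervals lay below 0 for these 4 genes. That of Flt1 (chr5:147725962-147726261, minus strand) is shown because its KO response lay near 0. The choice is not a test, and nothing is read from a comparison of these windows. Each reads 5′ to 3′ on the strand of the gene, and capitals mark matches, on either strand and with overlaps allowed, to the GC box GGGCGG, the cAMP response element TGACGTCA, the hypoxia response core ACGTG, the TATA motif TATAAA or the ETS core CCGGAA.
Nrp1: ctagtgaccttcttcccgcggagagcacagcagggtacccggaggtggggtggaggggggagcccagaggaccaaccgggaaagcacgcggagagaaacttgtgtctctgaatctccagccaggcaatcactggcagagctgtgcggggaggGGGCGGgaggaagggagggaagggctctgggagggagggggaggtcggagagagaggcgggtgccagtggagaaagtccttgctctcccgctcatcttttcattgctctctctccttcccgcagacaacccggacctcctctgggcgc
Nrp2: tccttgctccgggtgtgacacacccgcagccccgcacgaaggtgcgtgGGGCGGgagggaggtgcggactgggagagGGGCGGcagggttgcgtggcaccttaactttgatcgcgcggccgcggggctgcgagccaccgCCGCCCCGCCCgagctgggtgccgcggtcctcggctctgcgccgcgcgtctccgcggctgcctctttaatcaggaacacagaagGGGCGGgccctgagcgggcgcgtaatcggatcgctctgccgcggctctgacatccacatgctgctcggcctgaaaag
Kdr: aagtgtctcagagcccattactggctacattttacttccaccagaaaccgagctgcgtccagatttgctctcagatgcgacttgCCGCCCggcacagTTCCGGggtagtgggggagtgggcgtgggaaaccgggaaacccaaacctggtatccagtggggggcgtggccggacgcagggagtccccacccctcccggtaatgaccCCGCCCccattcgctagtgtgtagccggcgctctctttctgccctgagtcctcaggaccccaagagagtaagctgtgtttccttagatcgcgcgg
Vegfa: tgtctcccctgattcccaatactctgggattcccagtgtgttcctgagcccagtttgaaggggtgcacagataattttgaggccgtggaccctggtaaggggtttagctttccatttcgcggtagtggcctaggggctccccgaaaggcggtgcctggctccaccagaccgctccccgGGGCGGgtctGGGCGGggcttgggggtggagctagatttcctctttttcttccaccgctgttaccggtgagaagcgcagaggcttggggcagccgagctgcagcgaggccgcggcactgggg
Flt1: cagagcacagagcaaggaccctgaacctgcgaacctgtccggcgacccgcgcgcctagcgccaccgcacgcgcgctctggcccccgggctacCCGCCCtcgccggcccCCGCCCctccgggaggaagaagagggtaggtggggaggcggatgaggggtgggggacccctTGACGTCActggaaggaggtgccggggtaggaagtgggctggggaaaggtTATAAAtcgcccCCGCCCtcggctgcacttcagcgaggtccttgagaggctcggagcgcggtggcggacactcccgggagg
A GC box stood in 11 of the 12 windows and in at least 1 window of all 10 genes, while 35.7% of 32851 mouse windows held one. The member windows had a GC content of 59.3% to 75.3%, against a median of 52.7% over all windows. The cAMP response element was found in the Flt1 window alone among the 12, and in 1.79% of all windows. Flt1 also held the single TATAAA match of the members (13.6% of all windows), and a second Vegfa window, inside the gene, the single ACGTG match (19.6%). The ETS core was found in the Kdr window, on the opposite strand, as the 1 match among the 12, and in 14.9% of all. Nrp2 carried 5 GC boxes and Nrp1 carried 1, so that the neuropilins shared this motif and none of the others searched.

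Neuropilin 1, which binds VEGF-A and class 3 semaphorins (Nrp1, ENSMUSG00000025810.9; GRCm38 chromosome 8, 128358604 to 128503363, plus strand), measured 71.5, 60.6, 68.5, 64.6 and 73.7 CPM in the KO isoproterenol hearts, against 76.3, 76.8, 71.9, 80.8 and 89 CPM in the KO vehicle hearts. All 5 KO isoproterenol values lay below the KO vehicle mean of 79 CPM, and the 2 groups overlapped slightly. It measured 81.3, 73.1, 77.6, 78.8 and 76.4 CPM in WT isoproterenol hearts, against 67.6, 74.7, 70, 74.1 and 71.5 CPM in WT vehicle hearts. There, none of the 5 isoproterenol values lay below the vehicle mean of 71.6 CPM. The log2 fold change of isoproterenol over vehicle was −0.22 in KO hearts (SE 0.0629, 95% interval −0.35 to −0.09) and 0.11 in WT hearts (SE 0.0629, −0.02 to 0.25). The exons of Nrp1 overlap those of the microRNA gene Mir1903 over 80 bases on the same strand, and how reads there were assigned is not stated by the labels.

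Neuropilin 2, the co-receptor best known in lymphatic and venous vessels (Nrp2, ENSMUSG00000025969.15; chromosome 1, 62703285 to 62818695, plus strand), had the clearer separation. Its values were 30.4, 31, 32.9, 33.8 and 36.1 CPM in KO isoproterenol hearts, against 38.3, 41.2, 43.9, 45.8 and 53.2 CPM in KO vehicle hearts. In WT hearts it measured 42, 36.9, 43.2, 40.6 and 36.3 CPM with isoproterenol, against 39.6, 41, 38, 40.8 and 36.1 CPM with vehicle. Every KO isoproterenol library was below every KO vehicle library and also below every WT isoproterenol library, while the WT groups overlapped almost fully. The log2 fold change of isoproterenol was −0.44 in KO hearts (SE 0.0757, 95% interval −0.6 to −0.28), which is 0.738 of the vehicle level, and 0.03 in WT hearts (SE 0.0755, −0.13 to 0.19).

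The 2 sides of that contrast both entered the difference between genotypes. Under vehicle, KO hearts averaged 44.5 ± 5.63 CPM of Nrp2 and WT hearts 39.1 ± 2.08 CPM, and under isoproterenol KO hearts averaged 32.8 ± 2.27 CPM and WT hearts 39.8 ± 3.09 CPM (SD, n = 5 each). For Nrp1 the KO vehicle mean was likewise above the WT vehicle mean, at 79 ± 6.42 against 71.6 ± 2.95 CPM, and the KO isoproterenol mean below the WT isoproterenol mean, at 67.8 ± 5.28 against 77.4 ± 3.02 CPM. The WT groups thus lay between the KO groups for both neuropilins. The KO response minus the WT response was −0.33 for Nrp1 (SE 0.0889, 95% interval −0.52 to −0.15) and −0.47 for Nrp2 (SE 0.107, −0.69 to −0.24) on the log2 scale. KO vehicle replicate 5 was the highest library of its group for Nrp1, Nrp2, Kdr, Vegfa, Vegfc and Plxnd1, and the lowest for Flt1, Flt4 and Pgf. Without it the KO response was −0.17 for Nrp1 and −0.36 for Nrp2, and the difference −0.29 and −0.39.

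**Figure D2:**
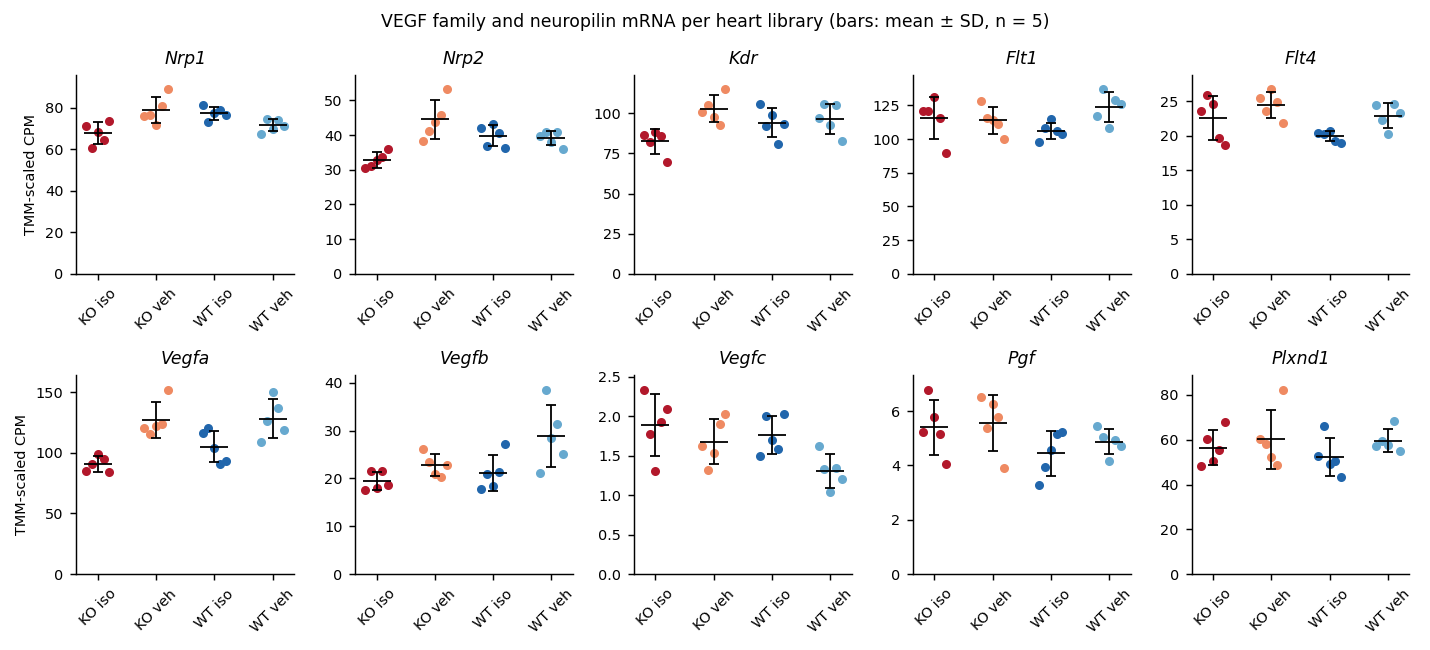
CPM of each member in every library (points) on linear axes from 0, with the mean and SD of the 5 libraries of a group as lines, for KO isoproterenol (iso), KO vehicle (veh), WT isoproterenol and WT vehicle hearts. The KO isoproterenol points of Nrp2, Kdr and Vegfa lie below all KO vehicle points, and no member is separated in this way between the WT groups.

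Kdr, which encodes the main signalling receptor for VEGF-A (ENSMUSG00000062960.10; chromosome 5, 75932827 to 75978458, minus strand), measured 86.8, 82.2, 88.1, 85.9 and 69.6 CPM in KO isoproterenol hearts, against 101, 105, 97.8, 92.8 and 115 CPM in KO vehicle hearts. In WT hearts it measured 106, 92.2, 98.8, 80.8 and 93.2 CPM with isoproterenol, against 97, 106, 92.5, 105 and 82.9 CPM with vehicle. The KO groups did not overlap and the WT groups did. Its log2 fold change was −0.31 in KO hearts (SE 0.0789, 95% interval −0.48 to −0.15) and −0.04 in WT hearts (SE 0.0788, −0.2 to 0.13). The lowest value came from KO isoproterenol replicate 5, and without that library the KO fold change was −0.25.

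Flt1, the receptor and trap for VEGF-A, VEGF-B and placental growth factor (ENSMUSG00000029648.13; chromosome 5, 147561604 to 147726011, minus strand), followed another order. Its group means were 116 ± 15.6 CPM in KO isoproterenol, 114 ± 9.9 CPM in KO vehicle, 106 ± 6.12 CPM in WT isoproterenol and 124 ± 11.2 CPM in WT vehicle hearts (SD, n = 5 each). Its response was 0.03 in KO hearts (SE 0.0812) and −0.22 in WT hearts (SE 0.0813, 95% interval −0.39 to −0.04) on the log2 scale, where all 5 WT isoproterenol libraries lay below the WT vehicle mean. The difference between the responses was thus positive, 0.24 (SE 0.115, 0 to 0.49), unlike that of Kdr, which was −0.28 (SE 0.111, −0.51 to −0.04). Gene-level counts do not separate the soluble from the membrane form of Flt1.

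Flt4, the VEGF-C receptor (ENSMUSG00000020357.3; chromosome 11, 49609263 to 49652739, plus strand), averaged 22.5 ± 3.17 CPM in KO isoproterenol, 24.4 ± 1.88 CPM in KO vehicle, 19.9 ± 0.753 CPM in WT isoproterenol and 22.9 ± 1.77 CPM in WT vehicle hearts (SD, n = 5 each). The log2 responses were −0.12 (SE 0.0805) in KO and −0.21 (SE 0.0813) in WT hearts, so that both genotypes had a lower mean with the drug. Plxnd1, the plexin that receives semaphorin signals in endothelial cells (ENSMUSG00000030123.15; chromosome 6, 115954811 to 115995005, minus strand), was more variable, with 48.2 to 67.8 CPM in KO isoproterenol, 48.6 to 82.4 CPM in KO vehicle, 43.2 to 66.1 CPM in WT isoproterenol and 55.1 to 68.5 CPM in WT vehicle hearts. Its log2 responses of −0.1 (SE 0.132) and −0.18 (SE 0.132), in KO and WT hearts, were close to their standard errors.

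Among the ligands, Vegfa, the central growth factor of blood vessels (ENSMUSG00000023951.17; chromosome 17, 46016993 to 46032369, minus strand), measured 84.6, 90.3, 99.2, 94.5 and 84.5 CPM in KO isoproterenol hearts, against 120, 115, 122, 124 and 152 CPM in KO vehicle hearts. In WT hearts it measured 116, 120, 104, 90.8 and 93.1 CPM with isoproterenol, against 109, 126, 150, 137 and 119 CPM with vehicle. The KO groups were apart, and all 5 WT isoproterenol libraries lay below the WT vehicle mean although the WT groups overlapped. The log2 fold change was −0.48 in KO hearts (SE 0.089, 95% interval −0.67 to −0.3) and −0.29 in WT hearts (SE 0.0887, −0.48 to −0.11). The interval of the difference, −0.19 (SE 0.125, −0.46 to 0.08), includes 0. Unlike the neuropilins, Vegfa thus had a lower mean with the drug in both genotypes. Summed cardiomyocyte markers were also lower, averaging 59300 CPM in KO isoproterenol against 67800 CPM in KO vehicle hearts, and 63800 CPM in WT isoproterenol against 71900 CPM in WT vehicle hearts. The gene Ttn alone gave 33900 and 39200 CPM of these KO sums, and 37200 and 39800 CPM of the WT sums. Of the 10 markers, 3 passed as lower in each genotype, beside 4.29% of all genes in KO and 4.12% in WT hearts. Ryr2 had log2 responses of 0.17 in KO and 0.18 in WT hearts, and Actn2 had 0.01 in KO and −0.32 in WT hearts. The part of the cardiomyocyte markers in the Vegfa values was not tested.

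Vegfb, a VEGFR1 ligand abundant in heart muscle (ENSMUSG00000024962.13; chromosome 19, 6982473 to 6987651, minus strand), measured 17.5, 21.5, 18.1, 21.6 and 18.6 CPM in KO isoproterenol hearts, against 26.1, 23.5, 21, 20.4 and 22.9 CPM in KO vehicle hearts. It measured 17.7, 20.9, 18.5, 21.3 and 27.3 CPM in WT isoproterenol hearts, against 21.2, 38.6, 28.5, 31.3 and 25.2 CPM in WT vehicle hearts. The WT vehicle hearts thus spread most, and all 5 isoproterenol libraries of each genotype lay below their vehicle mean. The log2 response was −0.23 in KO hearts (SE 0.133, 95% interval −0.51 to 0.05) and −0.45 in WT hearts (SE 0.132, −0.73 to −0.17). The highest value came from WT vehicle replicate 2, and without it the WT response was −0.33.

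The lymphatic ligand Vegfc (ENSMUSG00000031520.6; chromosome 8, 54077606 to 54187096, plus strand) was near the lower end of what was tested, with 24 to 50 reads in KO isoproterenol, 24 to 77 in KO vehicle, 26 to 68 in WT isoproterenol and 19 to 32 in WT vehicle libraries. It averaged 1.89 ± 0.389 CPM in KO isoproterenol, 1.68 ± 0.284 CPM in KO vehicle, 1.77 ± 0.241 CPM in WT isoproterenol and 1.31 ± 0.215 CPM in WT vehicle hearts (SD, n = 5 each). It was the member with the largest positive response, 0.43 in WT hearts (SE 0.188, 95% interval 0.03 to 0.83), where none of the 5 isoproterenol libraries lay below the vehicle mean, and had 0.17 in KO hearts (SE 0.178). Pgf, placental growth factor (ENSMUSG00000004791.7; chromosome 12, 85166635 to 85177790, minus strand), averaged 5.4 ± 1 CPM in KO isoproterenol, 5.57 ± 1.03 CPM in KO vehicle, 4.44 ± 0.826 CPM in WT isoproterenol and 4.87 ± 0.468 CPM in WT vehicle hearts. Its responses of −0.04 (SE 0.146) in KO and −0.12 (SE 0.15) in WT hearts were smaller than their standard errors.

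In all, 8 of the 10 members had a fold change below 0 with isoproterenol in KO hearts and 7 of 10 in WT hearts, with medians of −0.17 and −0.15 on the log2 scale. Over all 14878 genes 47.5% and 49.2% were below 0, with medians of 0.01 and 0. At an adjusted p under 0.05 in edgeR's quasi-likelihood test, 4.29% of all genes passed as lower and 4.75% as higher in KO hearts. In WT hearts 4.12% passed as lower and 4.64% as higher. Since these comparisons chose the members, calls of the members are not given, and nothing is read from the counts below 0.

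**Figure D3:**
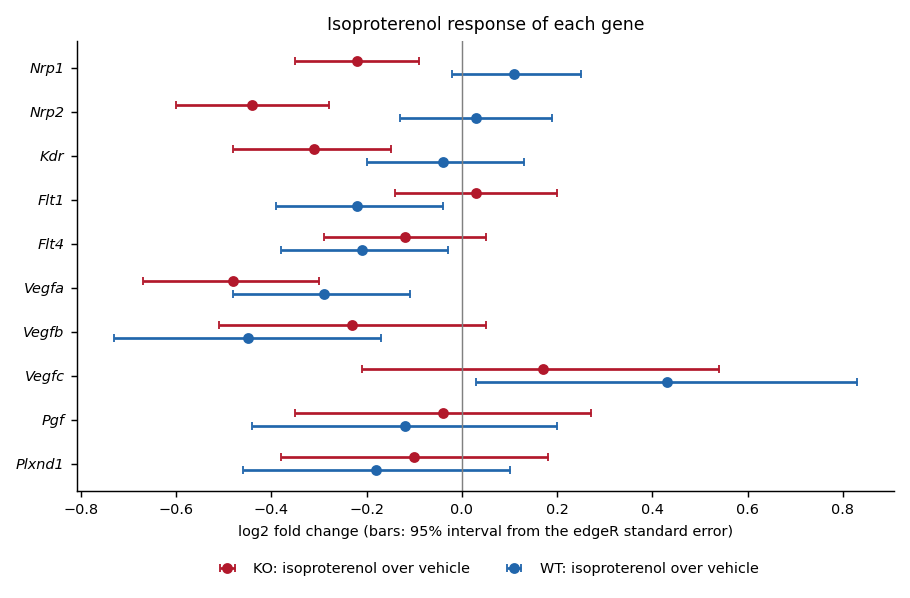
Log2 fold change of isoproterenol over vehicle for each member in KO hearts (red) and in WT hearts (blue), with 95% intervals from edgeR (n = 5 libraries per group). Nrp1 and Nrp2 lie below 0 in KO hearts, at −0.22 and −0.44, and at 0.11 and 0.03 in WT hearts, while Vegfa lies below 0 in both.

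By value per library, 3 of the 10 members, Nrp2, Kdr and Vegfa, had all KO isoproterenol libraries below all KO vehicle libraries and none had them all above, beside 4.31% and 3.75% of all genes. No member separated the WT groups in either direction, beside 3.75% lower and 4.29% higher. Nrp2 was the 1 member with every KO isoproterenol library below every WT isoproterenol library, beside 1.13% of all genes. The difference between the 2 genotypes' responses passed at an adjusted p under 0.05 for 0 of 14878 genes (0%) in edgeR, with a lowest adjusted p of 0.231. At an unadjusted p under 0.05 there were 1142 genes, and DESeq2 called 1 and limma-voom 0. With no filter on low counts edgeR called 34 of 32544 genes. Calls of the members are not given for this difference, because it entered their choice.

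The members were also set against the endothelial content of each library, taken as the mean log2 CPM of 23 endothelial markers. This level was 5.05 ± 0.0509 in KO isoproterenol, 4.96 ± 0.0595 in KO vehicle, 5.06 ± 0.0569 in WT isoproterenol and 4.92 ± 0.0629 in WT vehicle hearts (SD, n = 5 each). It was thus slightly higher with the drug in both genotypes, while Kdr and the neuropilins were lower in KO hearts. Relative to it, the KO response was −0.31 for Nrp1, −0.52 for Nrp2, −0.4 for Kdr and −0.57 for Vegfa, and the WT response was −0.03, −0.12, −0.18 and −0.44 for the same genes. Subtracting the marker level shifts every gene alike within a genotype. The KO minus WT difference was −0.28 for Nrp1 and −0.4 for Nrp2 on this scale. Flt1 had −0.07 in KO and −0.36 in WT hearts on this scale. Of the 23 markers, 1 passed as higher in KO hearts and 4 in WT hearts, beside 4.75% and 4.64% of all genes, and none as lower. Clec14a, an endothelial surface lectin, rose by 0.4 in KO hearts (SE 0.0998, adjusted p = 0.00945) and by 0.44 in WT hearts (SE 0.0998, adjusted p = 0.00476), and Pecam1, an endothelial adhesion molecule, by 0.29 in WT hearts (SE 0.0613, adjusted p = 0.00297). The other 2, Cdh5 and Emcn, did not pass under several alternatives, including without WT vehicle replicate 2. Of 6 lymphatic markers, 1, Pdpn, rose in each genotype (in KO hearts not without KO vehicle replicate 2, and in WT hearts not without WT isoproterenol replicate 1, 3 or 4 or WT vehicle replicate 1, 3, 4 or 5). The summed level of the 6 was 82.6 to 95.5 CPM in KO isoproterenol, 91.7 to 98 CPM in KO vehicle, 74.5 to 93.6 CPM in WT isoproterenol and 79.3 to 87.9 CPM in WT vehicle hearts. Its largest parts were Prox1 and Lyve1, with group means of 35.3 to 41.9 and 25.6 to 32 CPM. Mmrn1 averaged 9.34 CPM in KO isoproterenol and 9.11 CPM in KO vehicle hearts. In WT hearts it averaged 5.02 CPM with isoproterenol and 3.88 CPM with vehicle, where single libraries ran from 0.0387 to 9.58 CPM. The part of Mmrn1 in the genotype differences of the sum was not tested.

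**Figure D4:**
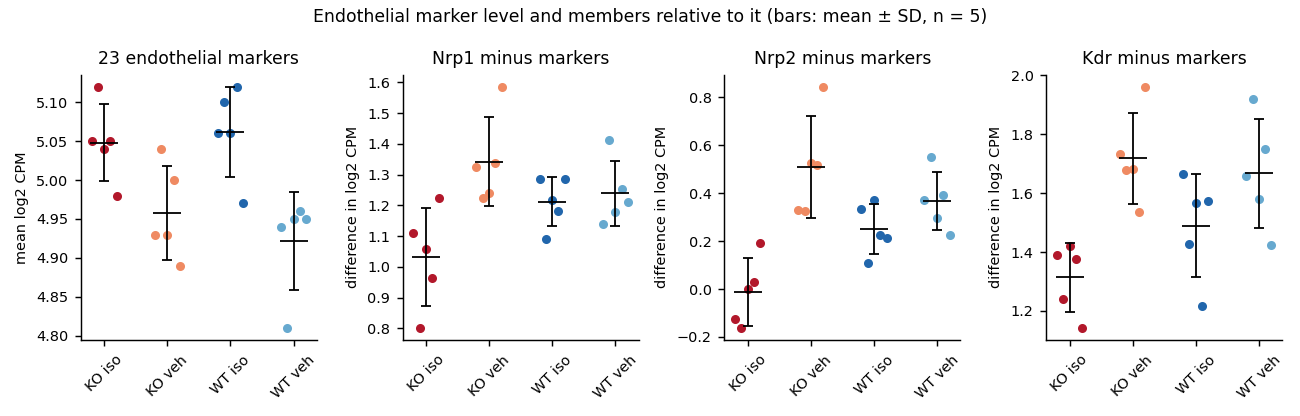
Mean log2 CPM of 23 endothelial markers in each library (left panel), and log2 CPM of Nrp1, Nrp2 and Kdr minus that mean, one point per library with the mean and SD of each group of 5 as lines; the axes do not start at 0. The marker mean is 5.05 in KO isoproterenol against 4.96 in KO vehicle hearts, and the Nrp2 difference averages −0.01 in KO isoproterenol against 0.51 in KO vehicle hearts.

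Loss of Ogfod1 itself, KO against WT averaged over both treatments, does not share the contrast that chose the members and was tested. No member passed, where 0.847% of all genes did (126 genes). In edgeR the adjusted p ran from 0.301 to 0.996, and DESeq2 and limma-voom also called 0 members. Beside 12.8% of all genes, 3 of the 10 members had an unadjusted p under 0.05 in edgeR. These were Flt4, with a log2 difference of 0.13 (SE 0.0572, 95% interval 0.01 to 0.25, adjusted p = 0.322), Pgf with 0.23 (SE 0.104, 0 to 0.45, adjusted p = 0.356) and Vegfb with −0.23 (SE 0.0935, −0.43 to −0.03, adjusted p = 0.301). With no filter on low counts Vegfb passed, at the same −0.23. The averages of Nrp1 and Nrp2 were −0.02 (−0.12 to 0.07) and −0.04 (−0.16 to 0.07), so that intervals of this size held both averages near 0. These averages join differences of opposite sign. For both genes the KO mean was above the WT mean under vehicle and below it under isoproterenol. For Nrp2 this was 44.5 against 39.1 CPM and 32.8 against 39.8 CPM. An average near 0 thus describes neither treatment for these 2 genes. The comparison under vehicle alone shares its libraries with the responses that chose the members, so that it is given as values with no p. Over all genes 0.128% passed there in edgeR (19 genes). Nrp2 was 0.19 higher in KO hearts (SE 0.0752, 95% interval 0.03 to 0.35) and Nrp1 0.14 higher (SE 0.0628, 0.01 to 0.28). Vegfb had −0.34 (SE 0.13, −0.61 to −0.06). The intervals of the other members under vehicle included 0.

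**Figure D5:**
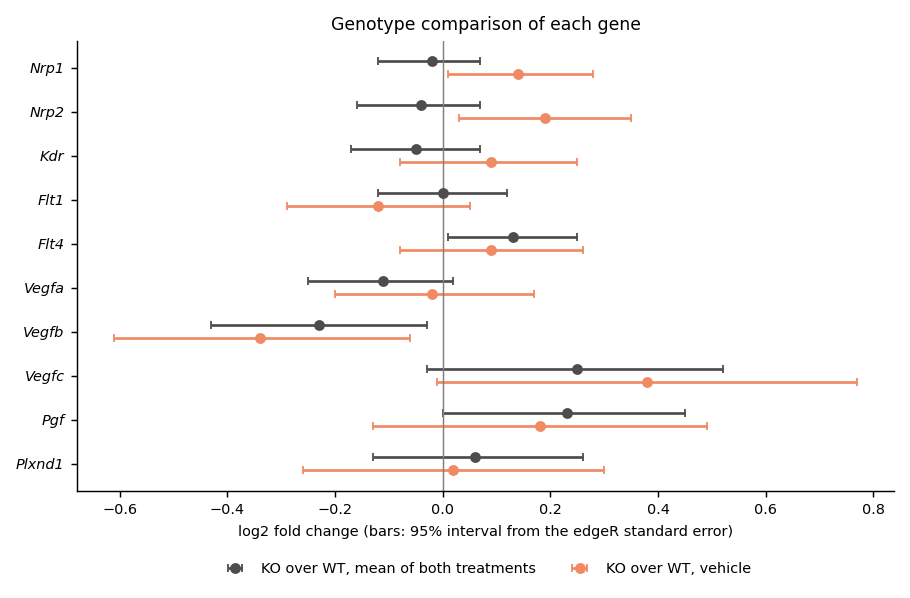
Log2 difference of KO over WT hearts for each member, averaged over treatments and under vehicle alone, with 95% intervals from edgeR (n = 5 libraries per group). Flt4 at 0.13 and Pgf at 0.23 lie above 0 and Vegfb at −0.23 below 0 in the average, where no member passed the adjusted threshold.

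Other genes of the same pathways were counted from lists that the members do not enter. Beside the counts of this and the later lists, 4.29% of all genes fell and 4.75% rose in KO hearts. In WT hearts 4.12% fell and 4.64% rose. Counts of 1 gene in lists of this size lie near these shares, and no list was tested as a set. Of 21 semaphorins and plexins, only some of them ligands or partners of neuropilins, 1 fell and 0 rose in KO hearts, and 5 fell and 1 rose in WT hearts. Sema4d, a semaphorin that signals through B-class plexins, fell by 0.49 in KO hearts (SE 0.118, adjusted p = 0.00791), and its fall in WT hearts was 0.82 (SE 0.117, adjusted p = 2.61e-05). Its receptor Plxnb1 fell in WT hearts by 0.36 (SE 0.0935, adjusted p = 0.014). The related Plxnb2 fell there by 0.3 (SE 0.0688, adjusted p = 0.00487), and Plxna2, a neuropilin partner, fell there by 0.28 (SE 0.0693, adjusted p = 0.00951). The call of Plxnb1 was lost without WT isoproterenol replicate 3. In KO hearts Plxnb1 had −0.28 (SE 0.0945, adjusted p = 0.059), Plxnb2 0.04 and Plxna2 −0.11. The median of the list was 0.03 in each genotype, against 0.01 and 0 over all genes.

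Of 29 genes of VEGF signalling downstream of the receptors, 3 rose and 0 fell in KO hearts, and 1 rose and 2 fell in WT hearts. Mapk3, an ERK kinase, rose by 0.37 in KO hearts (SE 0.102, adjusted p = 0.0186), and Ptprj, a phosphatase that acts on VEGFR2, by 0.3 (SE 0.083, adjusted p = 0.018). Src, a kinase that relays VEGFR2 signals, rose by 0.59 (SE 0.158, adjusted p = 0.0168), but not without KO isoproterenol replicate 5, and had 0.38 (adjusted p = 0.102) when WT vehicle replicate 2 was left out as well. In WT hearts Nos3, the endothelial nitric oxide synthase, fell by 0.3 (SE 0.0866, adjusted p = 0.0247), and Mapk14, the p38 alpha kinase, fell by 0.31 (SE 0.0768, adjusted p = 0.00909). The Mapk3 call was lost without KO vehicle replicate 3, that of Ptprj without KO isoproterenol replicate 2 or KO vehicle replicate 5, that of Mapk14 without WT vehicle replicate 3, and that of Nos3 without WT isoproterenol replicate 1, 3 or 5 or WT vehicle replicate 1, 4 or 5. In KO hearts Nos3 had −0.18 (adjusted p = 0.197) and Mapk14 −0.19 (adjusted p = 0.115).

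The tip cell and Notch list, genes of sprouting vessels, had 14 of 15 members tested. Of these 1 fell in KO hearts, and 2 fell and 1 rose in WT hearts. Apln, the peptide apelin of sprouting endothelium, fell by 0.67 in KO hearts (SE 0.189, adjusted p = 0.022), and had −0.45 in WT hearts (adjusted p = 0.152). The Notch ligand Dll4 fell by 0.47 in WT hearts (SE 0.128, adjusted p = 0.0201) and the receptor Notch1 by 0.37 (SE 0.0933, adjusted p = 0.0131), with −0.29 (adjusted p = 0.162) and −0.03 (adjusted p = 0.913) in KO hearts. The Apln call was lost without KO isoproterenol replicate 1, 3 or 4 or KO vehicle replicate 4 or 5, that of Dll4 without WT isoproterenol replicate 2 or WT vehicle replicate 2 or 4, and that of Notch1 without WT vehicle replicate 4. With library size alone as the scaling, Sema4d in KO hearts, Plxnb1, Plxnb2, Plxna2, Nos3, Mapk14, Apln, Dll4 and Notch1 kept their direction but did not pass. The rise was that of Aplnr, the apelin receptor, at 1.1 (adjusted p = 0.0402), which did not pass under 13 alternatives. Of 6 angiopoietin and Tie genes, Svep1, a matrix protein of developing lymphatic vessels, rose by 0.62 in KO hearts (SE 0.0893, adjusted p = 3.6e-05) and by 0.5 in WT hearts (SE 0.0904, adjusted p = 0.000496), and no other member passed. None of the lists had a gene that passed for the difference between the responses.

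Hypoxia-responsive genes, a class to which Vegfa belongs, were split. Of 20 tested, 3 rose and 2 fell in KO hearts, and 6 rose and 3 fell in WT hearts, and the list medians were 0.12 and 0.01. Hmox1, heme oxygenase 1, rose by 0.74 in KO hearts (SE 0.188, adjusted p = 0.0119) and by 0.89 in WT hearts (SE 0.189, adjusted p = 0.00319), and Hk2, hexokinase 2, fell by 0.35 in KO hearts (SE 0.0686, adjusted p = 0.00103) and by 0.45 in WT hearts (SE 0.0686, adjusted p = 5.56e-05). Vegfa had −0.48 in KO hearts and −0.29 in WT hearts. Ankrd37 rose by 1.34 in WT hearts (SE 0.286, adjusted p = 0.00272) and had 0.18 in KO hearts (SE 0.305, adjusted p = 0.79). Its level was low, with means of 1.56 CPM in WT isoproterenol and 0.608 CPM in WT vehicle hearts. In KO hearts it averaged 0.743 CPM with isoproterenol and 0.629 CPM with vehicle. Among markers of other cell types, 3 of 8 fibroblast, 3 of 12 smooth muscle and pericyte and 4 of 14 macrophage genes rose in KO hearts, and 4, 3 and 6 in WT hearts. Of 10 cardiomyocyte markers, 3 fell in each genotype, and of 4 adipocyte markers tested none passed. Of 8 erythroid and platelet markers tested, none passed in KO hearts and 1, the platelet gene Pf4, rose in WT hearts, by 0.69 (SE 0.162, adjusted p = 0.00639). Their median response was 0.36 in KO hearts and −0.44 in WT hearts, with a median difference of 0.78, and none passed for the difference. Alas2, an enzyme of heme synthesis in red cells, had 0.39 (SE 0.178, adjusted p = 0.192) in KO hearts and −0.5 (SE 0.181, adjusted p = 0.0989) in WT hearts. The summed level of this list was 313 to 648 CPM in KO isoproterenol, 255 to 374 CPM in KO vehicle, 228 to 350 CPM in WT isoproterenol and 295 to 466 CPM in WT vehicle hearts. The median difference of these markers had the opposite sign to that of Nrp1 and Nrp2, and their part in the neuropilin values was not tested.

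Across the 20 libraries with the group mean removed from each, the log2 CPM of Nrp1 and Nrp2 had a Pearson correlation of 0.6. Flt1 correlated at 0.66 with both Flt4 and Pgf, and Pgf at −0.64 with Nrp1, as a description over libraries that share depth, composition and the variable RNA content of a heart powder. KO isoproterenol replicate 5 was the highest of its group for Nrp1, Nrp2 and Plxnd1 and the lowest for Flt1, Flt4 and Pgf. KO vehicle replicate 5 held the same places in its group. The part of these libraries in the correlations was not tested. Among 6626 other named genes with an average log2 CPM of at least 3, those most like Nrp1 were Dusp11 with 0.78, Ints6l with 0.77, Cdc23 with 0.73, and Itga1 and Ubn1 with 0.72 each. Those most like Nrp2 were Ptges3 with 0.83, Gimap4 with 0.78, Smarcad1 and Eepd1 with 0.76 each and Slfn5 with 0.74. The highest of 6626 correlations over 20 libraries can be large by chance, and no background for them was worked out. None of these 10 genes passed for isoproterenol in KO hearts, where their fold changes ran from −0.26 for Gimap4 to 0.16 for Ints6l. In WT hearts Itga1, a collagen-binding integrin subunit, rose by 0.34 (SE 0.06, adjusted p = 0.000341) and Eepd1 by 0.52 (SE 0.138, adjusted p = 0.0179). The likeness thus describes variation among libraries of a group, and none of the 5 genes most like Nrp2 carried its KO response of −0.44.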

How the data were processed

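Frozen heart powder gave the RNA for libraries made with a stranded total RNA kit, per the labels' protocols. The authors deposited raw counts per gene for 20 libraries. The submitters' processing notes name, for the deposited counts, the build GRCm38 and the tools HISAT2 2.1.0, featureCounts 1.6.3, R 3.6.0 and limma 3.40.6. Which annotation was counted, with which strand setting and with what rule for multiply mapped reads is not given in the sources used here. Overlapping genes may therefore have lost or shared reads.

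Groups came from the labels, and 0 columns lacked a sample. Gene symbols and positions are those of GENCODE vM21 (GRCm38), where 55154 of 55335 IDs were found, 54587 with the same version. The lowest chi-square per degree of freedom between libraries of a group was 3.82, so that none was a copy of another. In R 4.3.3, edgeR 4.0.16 fitted all libraries in 1 quasi-likelihood model with robust estimation, a mean per group, scaling by trimmed mean of M values (TMM) and the filterByExpr filter, with 16 residual degrees of freedom. Benjamini-Hochberg adjustment ran over all 14878 genes tested, and genes passed under 0.05. CPM values are counts scaled to the TMM library size. The fit was tested on simulated data. Members were to be tested for KO against WT under vehicle too, but these are given as values, since the vehicle libraries also enter the responses that chose them.

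The members and lists were chosen with earlier results of these data known. Named list genes were among the up to 4 with the smallest p per list and genotype, and the examples among them were picked with values in view. For likeness the 5 genes with the highest correlation were taken. Promoter sequences are RefSeq's on GRCm38.p6. Alternatives were DESeq2 1.42.0, limma-voom (limma 3.58.1), other scalings and filters, fits without mitochondrially encoded genes or of only the groups compared, leaving out each library, and the endothelial scale. Python 3.11.15 with matplotlib 3.10.9 drew the figures.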

Additional observations from a re-analysis of the deposited data

Results flagged for a closer look

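Vegfa measured 152 CPM in KO vehicle replicate 5, against 115 to 124 CPM in the other 4 KO vehicle hearts. This was the 1 member value among 40 sets of 5 libraries that stood apart from its group by Dixon's criterion, which chance meets in about 1 of 20 sets. Without that library the KO response of Vegfa was −0.41.

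Nrp1 was lower in all 5 KO isoproterenol hearts than the KO vehicle mean and higher in all 5 WT isoproterenol hearts than the WT vehicle mean, and the KO response minus the WT response was −0.33 on the log2 scale. That difference was not tested for Nrp1, because the gene was chosen with it in view.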

How the results depend on the processing

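For isoproterenol in KO hearts 1344 genes passed, and 1001 to 1442 when any 1 library was left out. For isoproterenol in WT hearts 1304 passed, 882 to 1686 leaving out 1 library, and 857 with library size alone as the scaling. That scaling moved the median of all genes by 0.063 in KO hearts and left 684 genes higher and 281 lower there, against 706 and 638 with TMM, and 561 higher and 296 lower in WT hearts, against 691 and 613. For the difference between responses 0 passed, 1 with DESeq2 and 34 with no filter on low counts. There were 4 without KO isoproterenol replicate 5 and WT vehicle replicate 2 together, and 0 to 1 leaving out 1 library. For KO against WT averaged over treatments 126 passed, 228 with DESeq2, 59 with library size alone, 350 with no filter, and 74 to 143 leaving out 1 library. For KO against WT under vehicle 19 passed, 73 with DESeq2, 117 with no filter, 38 without both libraries, and 10 to 35 leaving out 1 library. The cause of these shifts was not tested.

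The KO response kept its sign under all 30 alternatives on the CPM scale for Nrp1 (−0.25 to −0.16), Nrp2 (−0.49 to −0.36), Kdr (−0.35 to −0.25) and Vegfa (−0.52 to −0.41), as did the difference between responses for Nrp1 (−0.38 to −0.29) and Nrp2 (−0.52 to −0.39) under 29. Differences near 0 changed sign, and in the average over treatments none of these passed the threshold. The KO response ran from −0.02 to 0.11 for Flt1, −0.16 to 0.06 for Pgf and −0.17 to 0.04 for Plxnd1. The WT response of Kdr ran from −0.09 to 0.01, and the difference between responses of Pgf from −0.03 to 0.18. Relative to endothelial markers the WT response was −0.03 for Nrp1 and −0.12 for Nrp2, against 0.11 and 0.03 on the CPM scale. Flt1 in the average over treatments had 0 with DESeq2, limma-voom, RLE scaling, no filter and no mitochondrial genes, −0.01 relative to endothelial markers, and −0.02 to 0.04 leaving out 1 library. Plxnd1 had −0.01 to 0.11 in the average and, under vehicle, −0.12 to 0.09 leaving out 1 library and −0.04 relative to endothelial markers, and Vegfa −0.09 to 0.05 under vehicle. No paired analysis was possible because the labels carry no replicate numbers that groups share. A fit of only the groups compared was not run for the difference or the average, which need all groups. Depth limits Vegfc most, with 19 to 77 reads per library.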
